A study of Homo sapiens with 9 samples.

Results

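MM.1S cells, an established human multiple myeloma line, were profiled after 24 h with 5 nM HL13, 5 nM LBH589 (panobinostat, an inhibitor of histone deacetylases) or DMSO, the solvent control, on 3 Affymetrix whole-transcript arrays per group and 9 in all. HL13 is known here only by its code. All 3 groups were cells of 1 line grown in culture, so no stromal, endothelial or fat cells of a bone marrow niche were part of the experiment as labelled. The account below concerns 9 genes around lysophosphatidic acid (LPA): ENPP2 and LIPH, which make it, ENPP5, a relative of ENPP2, the receptors LPAR1, LPAR2, LPAR5 and LPAR6, and the phosphatases PLPP1 and PLPP3. The genes were chosen by pathway and by their log2 differences between these 3 groups, with earlier results of the same arrays in view, so their values are given as a description and without p values. A transcript cluster, the set of probes that the array summarises into 1 value, was taken where it carried exactly 1 of these symbols, and of several clusters the one with the highest mean over the 9 arrays was used. This gave 8 of the 9 genes, out of 22465 genes measured in the same way, and LPAR5 was not analysed here.

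LPA is a small phospholipid that acts outside cells like a growth factor. Autotaxin, the secreted enzyme encoded by ENPP2, makes it by cutting choline from lysophosphatidylcholine, while the membrane enzyme LIPH makes it from phosphatidic acid. LPA then binds G protein-coupled receptors, some of the EDG family (LPAR1, LPAR2, LPAR3) and some related to P2Y receptors (LPAR4, LPAR5, LPAR6), and lipid phosphate phosphatases on the cell surface end the signal by removing its phosphate. Autotaxin was first purified from the medium of melanoma cells as a motility factor, and LIPH and LPAR6 are both known from inherited forms of sparse, woolly hair.

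ENPP2, ENPP5 and, with HL13, LIPH stood furthest above DMSO among the 8 genes, and the receptors stayed close to it. ENPP2 was 21.5-fold higher with HL13 and 10.1-fold higher with LBH589, ENPP5 was 8.98-fold and 7.46-fold higher, and LIPH was 6.3-fold higher with HL13 but 1.74-fold with LBH589. PLPP1 was about 2-fold higher with either compound, at 2.02-fold and 1.83-fold. LPAR1, LPAR2 and LPAR6 each lay within 0.1 of DMSO on the log2 scale. LPAR1 and LPAR6 were below the array median on every array, so a change in them may be understated. Both comparisons with DMSO use the same 3 DMSO arrays. The HL13 arrays lay above all DMSO arrays for 5 of the 8 genes, ENPP2, ENPP5, LIPH, PLPP1 and PLPP3, against 27.9% of all genes. For these 5 the LBH589 arrays did so too, against 24.0% of all genes. For 4 of the 8, ENPP2, ENPP5, LIPH and PLPP1, the HL13 arrays lay above the LBH589 arrays without overlap, against 16.8% of all genes. These counts describe genes chosen for such values, and nothing is read from them.

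**Figure D1:**
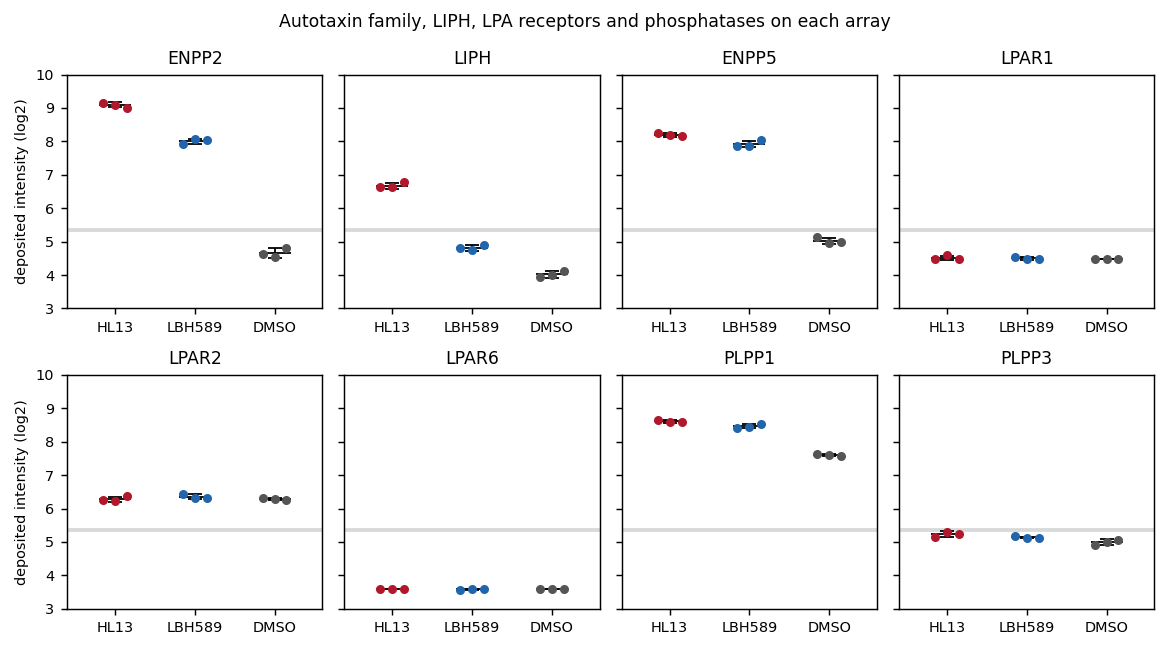
Deposited log2 intensity (vertical axis) of 8 genes on each of the 3 arrays with HL13 (red), LBH589 (blue) and DMSO (grey). Points are arrays, the wide bars are group means and the capped bars 1 SD (n = 3), and the pale band spans the medians of the 9 arrays, 5.33 to 5.38. ENPP2 and ENPP5 cross the band with both compounds, LIPH crosses it only with HL13, and the 3 receptors stay level.

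ENPP2, the autotaxin gene, had log2 intensities of 9.16, 9.09 and 9.01 with HL13, 7.92, 8.06 and 8.04 with LBH589, and 4.64, 4.53 and 4.81 with DMSO. The 3 groups did not overlap, and the order was HL13, LBH589, DMSO. All 3 DMSO arrays lay below the median of their array, so the folds against DMSO may be understated. HL13 minus DMSO was 4.43 ± 0.0728 (SE, n = 3 each, log2), with a 95% interval of 4.26 to 4.59. LBH589 minus DMSO was 3.34 (95% interval 3.18 to 3.51). Only 1 of the 22465 genes had a higher difference than ENPP2 in either comparison with DMSO. HL13 minus LBH589 was 1.08 (95% interval 0.92 to 1.25), a 2.12-fold difference, and 27 genes had a higher one. A second, dimmer ENPP2 cluster differed less, by 0.68 for HL13 minus DMSO and 0.36 for LBH589 minus DMSO, and with the 2 clusters averaged the ENPP2 differences were 2.55, 1.85 and, for HL13 minus LBH589, 0.70.

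LIPH, a phospholipase A1 that releases LPA from phosphatidic acid at the membrane, showed the widest gap between the 2 compounds. It read 6.63, 6.62 and 6.77 with HL13, 4.81, 4.74 and 4.9 with LBH589, and 3.93, 3.99 and 4.13 with DMSO. The groups did not overlap, and the HL13 arrays were the only ones above their array's median. HL13 minus LBH589 was 1.86 ± 0.0646 (SE, n = 3 each, log2), with a 95% interval of 1.71 to 2.0, a 3.62-fold difference. No other of the 22465 genes was further above LBH589 on the HL13 arrays. Against DMSO the difference was 2.65 with HL13 (95% interval 2.51 to 2.8) and 0.8 with LBH589 (0.65 to 0.94). For HL13, 18 genes had a higher difference from DMSO than LIPH, and for LBH589 518 genes did. Since the LBH589 and DMSO arrays were dim, folds against either may be understated. The 250 bases before the LIPH start in RefSeq (GRCh38.p14, chr3:185552589-185552838, minus strand) are shown because LIPH separated the compounds most. Capitals mark a GC box, GGGCGG on either strand.
LIPH: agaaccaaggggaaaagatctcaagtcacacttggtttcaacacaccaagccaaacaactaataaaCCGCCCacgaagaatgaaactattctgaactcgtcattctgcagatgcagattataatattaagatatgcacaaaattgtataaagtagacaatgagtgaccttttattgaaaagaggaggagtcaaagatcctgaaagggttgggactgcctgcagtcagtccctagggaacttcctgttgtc
This window was poor in G and C, at 40.8%, held 3 CpG dinucleotides and 1 TATA box (TATAAA), and had 1 GC box. Over 35116 RefSeq windows of the same length the median was 58.0% G and C with 11 CpG, 42.6% held a GC box and 10.7% a TATA box on either strand.

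**Figure D2:**
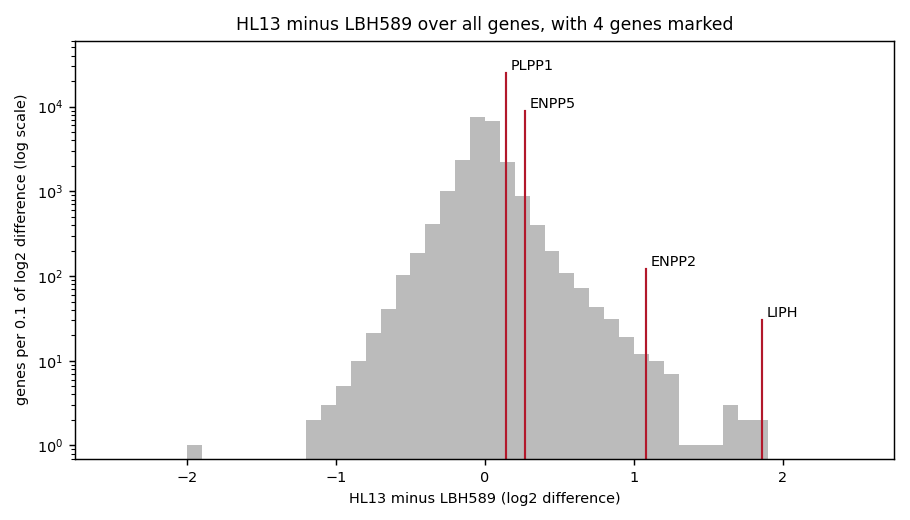
Number of genes (vertical axis, log scale) by HL13 minus LBH589 difference (horizontal axis, log2) over 22465 genes. Red lines mark LIPH at 1.86, ENPP2 at 1.08, ENPP5 at 0.27 and PLPP1 at 0.14; LIPH sits at the right end of the distribution.

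ENPP5, a membrane-anchored relative of autotaxin whose substrates are less well known, separated both compounds from DMSO but barely separated them from each other. Its log2 intensities were 8.24, 8.18 and 8.15 with HL13, 7.87, 7.87 and 8.03 with LBH589, and 5.13, 4.96 and 4.98 with DMSO. The HL13 arrays stood just above the LBH589 arrays, and both stood far above DMSO, whose arrays were below their medians. HL13 minus DMSO was 3.17 ± 0.0592 (SE, n = 3 each, log2; 95% interval 3.03 to 3.3) and LBH589 minus DMSO was 2.9 (2.76 to 3.03). HL13 minus LBH589 was 0.27 (0.13 to 0.4), and 1111 genes had a higher one. The ENPP5 window (RefSeq, GRCh38.p14, chr6:46170981-46171230, minus strand) is shown beside that of LIPH, with GC boxes on either strand in capitals.
ENPP5: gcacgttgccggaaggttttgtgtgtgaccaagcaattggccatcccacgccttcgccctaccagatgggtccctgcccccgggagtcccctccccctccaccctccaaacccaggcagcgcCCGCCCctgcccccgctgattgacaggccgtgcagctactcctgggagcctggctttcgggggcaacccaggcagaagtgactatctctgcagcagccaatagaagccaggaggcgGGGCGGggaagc
It differed from the LIPH window in composition, with 66.0% G and C, 12 CpG, 2 GC boxes, 2 CCAAT boxes (CCAAT on either strand, in 32.0% of windows) and no TATAAA. The 2 genes that were higher with HL13 than with DMSO by over 2 on the log2 scale and had a window thus shared only the GC box among the motifs searched.

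The receptors were close to level. LPAR2, an EDG-family receptor, was the only LPA receptor measured above the array median, on all 9 arrays. It read 6.25, 6.23 and 6.37 with HL13, 6.44, 6.31 and 6.31 with LBH589, and 6.32, 6.27 and 6.25 with DMSO. The 3 groups overlapped. HL13 minus DMSO was 0.01 (95% interval -0.11 to 0.12, log2), LBH589 minus DMSO 0.07 (-0.04 to 0.18) and HL13 minus LBH589 -0.07 (-0.18 to 0.04), so differences beyond 0.18 lay outside all 3 intervals. Its window (RefSeq, GRCh38.p14, chr19:19628221-19628470, minus strand) is given as that of a receptor gene that stayed level, with GC boxes in capitals.
LPAR2: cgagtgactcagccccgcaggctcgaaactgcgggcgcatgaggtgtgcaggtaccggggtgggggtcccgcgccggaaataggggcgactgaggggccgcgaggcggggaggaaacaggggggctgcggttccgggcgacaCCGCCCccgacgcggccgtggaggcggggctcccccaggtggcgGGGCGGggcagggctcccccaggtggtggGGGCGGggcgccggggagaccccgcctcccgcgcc
It held 78.4% G and C, 30 CpG, 3 GC boxes and 1 AP-1 site (TGANTCA, in 6.57% of windows). GC boxes were thus present in the windows of LIPH and ENPP5 as well as LPAR2. The table had windows for 6 of the 8 genes. The windows of PLPP3 and LPAR6 held no GC box, and 6 windows of LPAR1 ranged between 36.4% and 84.4% G and C.

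LPAR1, the EDG-family receptor best known from brain and fibroblasts, was dim on every array. It had 4.49, 4.59 and 4.49 with HL13, 4.54, 4.49 and 4.47 with LBH589, and 4.48, 4.49 and 4.49 with DMSO. The groups overlapped, and the 95% intervals ran between -0.06 and 0.12 over the 3 differences. LPAR6, the P2Y-related receptor that responds to LPA made by LIPH in hair follicles, had 3.59 on every HL13 and DMSO array and on all but 1 of the LBH589 arrays, which had 3.56. The same deposited value stood on 7 of the 9 arrays, as for 327 of 70523 clusters (0.464%), so its spread is not a measure of replicate error. LPAR3 and LPAR4, measured beside them, were below the median on all arrays. LPAR3 differed from DMSO by -0.06 with HL13 (adjusted p = 0.32, limma) and by 0.0 with LBH589 (adjusted p = 0.99), and LPAR4 by -0.01 with HL13 (adjusted p = 0.91) and -0.02 with LBH589 (adjusted p = 0.83).

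Both phosphatases stood above DMSO, PLPP1 by more than PLPP3. PLPP1, an ecto-phosphatase that dephosphorylates LPA and related lipids, read 8.65, 8.6 and 8.58 with HL13, 8.42, 8.45 and 8.54 with LBH589, and 7.62, 7.6 and 7.58 with DMSO. It was above the array median on all 9 arrays, and the groups did not overlap, although the lowest HL13 array and the highest LBH589 array were only hundredths apart. HL13 minus DMSO was 1.01 ± 0.038 (SE, n = 3 each, log2), LBH589 minus DMSO was 0.87 and HL13 minus LBH589 was 0.14 (95% interval 0.05 to 0.23). PLPP3, a phosphatase of the same family that is essential for blood vessel formation in mice, read 5.14, 5.31 and 5.23 with HL13, 5.17, 5.13 and 5.13 with LBH589, and 4.9, 5.0 and 5.07 with DMSO. Both compounds stood above DMSO without overlap, but no array reached its median. HL13 minus DMSO was 0.24 (0.12 to 0.35) and LBH589 minus DMSO was 0.15 (0.03 to 0.27), while HL13 minus LBH589 was 0.08 (-0.03 to 0.2).

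**Figure D3:**
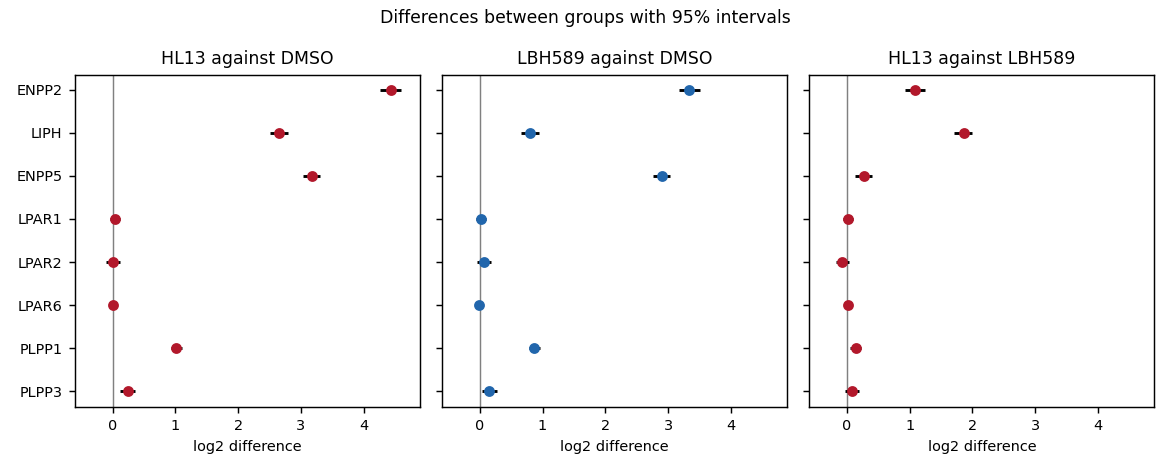
Log2 difference (horizontal axis) of 8 genes in 3 panels, each compound against DMSO and HL13 against LBH589. Points are differences of group means and lines are 95% intervals from the fit over all 9 arrays (n = 3 per group). ENPP2 is at 4.43 and 3.34 against DMSO, and LIPH has the highest HL13 minus LBH589 difference, 1.86.

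The 9 arrays could also be searched for genes that followed the same course. Each gene was centred on its DMSO mean and set against the member by the root mean square (RMS) of the log2 differences over 9 arrays, among 16834 protein-coding genes. The 3 closest to ENPP2 were MT1X, SERPINB9 and SYT11 (RMS 0.209, 0.35 and 0.379). MT1X, a metal-binding metallothionein, differed from DMSO by 4.14 with HL13 and 3.26 with LBH589. PEG10, STOM and MT2A came closest to ENPP5 (0.202, 0.285 and 0.289). LIPH was followed most closely by ERRFI1, a feedback inhibitor of EGF receptors, with 2.64 and 0.95 (RMS 0.132), then by MGARP (0.18) and the metallothionein MT1G (0.296). For PLPP1 the closest were UACA, SPIRE1 and FAM234B (0.0319, 0.037 and 0.0416), which differed from DMSO by 0.98 to 1.04 with HL13. With HL13, 426 genes stood further above DMSO than PLPP1, against 18 for LIPH and 1 for ENPP2. The RMS values are therefore not compared between members. Likeness here is over 9 arrays in 3 groups, so it reflects mainly 2 differences per gene.

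Beyond the named genes, 89 other genes of LPA metabolism and signalling were listed and 85 were measured. With HL13, 36 rose, 19 fell and 30 did not pass, against 22.9% of all genes that rose and 21.5% that fell. With LBH589, 30 rose, 20 fell and 35 did not pass, against 20.9% and 19.0% of all genes. Between HL13 and LBH589, 24 were higher with HL13, 11 lower and 50 did not pass, against 11.7% and 11.6% of all genes. The median differences were 0.08, 0.04 and 0.02, beside -0.002, 0.007 and -0.005 over all genes. These lists too were drawn up with earlier results of the arrays known, and calls are at an adjusted p under 0.05 in limma over all genes.

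Of the 4 other ENPP enzymes measured, 3 rose with each compound, against 22.9% of all genes with HL13 and 20.9% with LBH589. ENPP1, which splits ATP into AMP and pyrophosphate and also degrades cGAMP, had 8.92, 8.9 and 8.82 with HL13, 7.88, 7.91 and 8.0 with LBH589, and 6.94, 6.9 and 6.94 with DMSO. The groups did not overlap and kept the order seen for ENPP2. It rose by 1.96 ± 0.04 with HL13 and by 1.0 with LBH589, and was 0.95 higher with HL13 than with LBH589 (adjusted p = 2e-06, limma). ENPP4, which cuts diadenosine triphosphate on the surface of vascular cells, rose by 0.87 and 0.57 (adjusted p = 8.1e-06 and 0.00017, limma). ENPP3, below the median on all arrays, rose by 0.19 and 0.15, and ENPP6 had -0.05 and -0.07 and did not pass.

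Enzymes on routes into LPA or its precursor phosphatidic acid rose in 7 of 13 with HL13 and 1 fell, while 6 rose and 3 fell with LBH589. Over all genes, 22.9% rose and 21.5% fell with HL13, and 20.9% rose and 19.0% fell with LBH589. GDPD1, a glycerophosphodiesterase that makes LPA inside cells, rose by 1.3 with HL13 and 0.55 with LBH589, and PLD1, which makes phosphatidic acid from phosphatidylcholine, by 0.98 and 0.56. DDHD2, an intracellular phospholipase A1, rose by 0.77 with HL13 and 0.23 with LBH589. All 3 were higher with HL13 than with LBH589, by 0.75, 0.42 and 0.55 (adjusted p = 1.8e-05, 1.4e-05 and 8.3e-06, limma). Of the 13, 6 were higher and 2 lower with HL13 than with LBH589, against 11.7% and 11.6% of all genes. The 2 lower were GPAM and DDHD1, with -0.25 and -0.21 (adjusted p = 0.0026 and 0.0016, limma). The secreted phospholipase PLA1A and the LIPH relative LIPI were below the median on every array and passed no test.

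Among 11 other phosphatases and relatives, 3 rose and 1 fell with HL13, against 22.9% and 21.5% of all genes. PLPPR2 and PLPPR1, relatives that lack the catalytic residues, rose by 0.83 and 0.68 with HL13 and by 0.56 and 0.42 with LBH589. PLPP6, which acts on isoprenoid diphosphates, rose by 0.28 and 0.23. ACP6, a mitochondrial LPA phosphatase, averaged 6.99 with HL13 against 7.22 with DMSO and fell by 0.23 (adjusted p = 0.0026, limma), and with LBH589 the difference was -0.01 (adjusted p = 0.94). The direct relative PLPP2 had 0.14 and 0.11 and did not pass.

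Acyltransferases moved both ways, 5 up and 6 down of 12 with HL13, 4 up and 6 down with LBH589. The shares over all genes were 22.9% up and 21.5% down with HL13, and 20.9% and 19.0% with LBH589. Enzymes of the AGPAT family turn LPA into phosphatidic acid. AGPAT4 rose by 0.57 with HL13 and 0.51 with LBH589, whereas AGPAT5 had -0.56 and -0.49 and fell with both. The list also holds enzymes that act on other lysophospholipids, and the 4 that moved most with HL13 were of that kind. LPCAT2 and LPCAT3, which reacylate lysophosphatidylcholine, rose by 1.38 and 0.94 with HL13 and by 1.18 and 1.32 with LBH589. LPCAT3 was lower with HL13 than with LBH589, at 9.85 against 10.23 (-0.38, adjusted p = 4.2e-05, limma). LPCAT1, a further lysophosphatidylcholine acyltransferase, had -0.96 and -0.98, and MBOAT1 had -0.78 with HL13 and -0.37 with LBH589, and each fell with both compounds.

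Among the other 12 lysophospholipid receptors, 2 rose and 3 fell with HL13, against 22.9% and 21.5% of all genes. With LBH589 1 rose and 2 fell, against 20.9% and 19.0% of all genes. P2RY10, a lymphocyte receptor for lysophosphatidylserine, carried the widest change. It had 6.72, 6.78 and 6.56 with HL13, 6.81, 6.8 and 6.88 with LBH589, and 8.7, 8.68 and 8.75 with DMSO. Both treated groups lay below DMSO without overlap, with differences of -2.02 and -1.88 (adjusted p = 6e-09 and 1.3e-08, limma), and HL13 minus LBH589 was -0.15 (adjusted p = 0.094). GPR174, a second lysophosphatidylserine receptor, rose by 0.4 and 0.37. The sphingosine 1-phosphate receptor S1PR2 fell by 0.26 with HL13 and by 0.25 with LBH589.

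**Figure D4:**
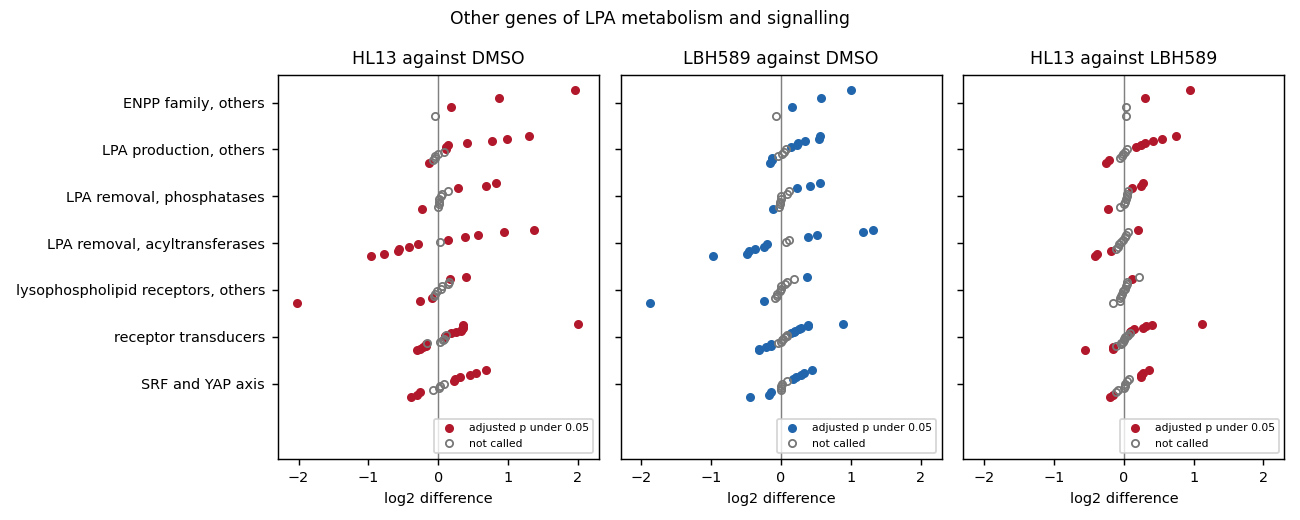
Log2 difference (horizontal axis) of the 85 measured genes of LPA metabolism and signalling, in 7 lists and 3 panels, each compound against DMSO and HL13 against LBH589. Each point is a gene, filled at an adjusted p under 0.05 and open otherwise; P2RY10 is the point near -2.02 and RHOB the point near 2.01 with HL13.

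Downstream of the receptors, 10 of 20 transducers rose and 5 fell with HL13, against 22.9% and 21.5% of all genes. With LBH589 8 rose and 5 fell, against 20.9% and 19.0% of all genes. RHOB, a small GTPase of stress responses and endosomes, had 10.44, 10.54 and 10.52 with HL13, 9.41, 9.33 and 9.41 with LBH589, and 8.5, 8.41 and 8.57 with DMSO. The groups did not overlap. RHOB rose by 2.01 and 0.89, and was 1.12 higher with HL13 than with LBH589 (adjusted p = 2e-06, limma), while RHOA, the GTPase usually placed after LPA receptors, had 0.07 and 0.08 and did not pass. GNAI2, an inhibitory G protein subunit, went opposite ways, with -0.17 for HL13 and 0.39 for LBH589 (adjusted p = 0.0022 and 1.3e-05, limma). After quantile normalization the HL13 difference was -0.109 (adjusted p = 0.0578). The HL13 minus LBH589 difference of GNAI2 was -0.56 (adjusted p = 8.7e-06).

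The list of SRF and YAP regulators and targets had 6 genes up and 3 down of 13 with HL13, and 5 up and 3 down with LBH589. Beside these counts, 22.9% of all genes rose and 21.5% fell with HL13, and 20.9% and 19.0% with LBH589. SRF had -0.26 with HL13 and -0.15 with LBH589 and fell with both (adjusted p = 0.0015 and 0.036, limma), while MRTFA rose by 0.24 and 0.44. The co-activators YAP1 and WWTR1 rose by 0.69 and 0.54 with HL13 and by 0.33 and 0.29 with LBH589. CCN2, a secreted target of YAP, rose by 0.45 with HL13 (adjusted p = 0.00014, limma), and with LBH589 its 0.17 (adjusted p = 0.043) no longer passed after quantile normalization (0.14, adjusted p = 0.0813). The DNA-binding partners went different ways. TEAD4 and TEAD1 fell by 0.39 and 0.31 with HL13, TEAD3 rose by 0.22 with each compound, and TEAD2 had 0.03 and 0.0 and did not pass. Of 2 further targets, CCN1 had 0.08 and 0.01 and ANKRD1 -0.07 and 0.0, and neither passed.

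The labelled cell type was checked against its markers. Of 10 plasma cell markers, 9 were above the array median on every HL13 array, 9 on every LBH589 array and 10 on every DMSO array. Of these markers 8 fell and 1 rose with HL13, against 21.5% and 22.9% of all genes. The same counts were found with LBH589, against 19.0% and 20.9% of all genes. The widest fall was that of TNFRSF17, the B cell maturation antigen, which averaged 5.56 with HL13, 5.49 with LBH589 and 10.05 with DMSO. CD38 was the marker that rose, by 1.43 with HL13 and 0.65 with LBH589. JCHAIN changed little, with -0.2 and -0.21. Autotaxin is also made by stromal, endothelial and fat cells. Of 10 fibroblast and stromal markers 6 were above the median on no array of any group, among them DCN, LUM, FAP and POSTN. The other 4, COL1A1, COL1A2, PDGFRB and THY1, were above it on every array. The summed linear intensity of the 10 markers ran between 395 and 412 with HL13, 374 and 394 with LBH589, and 361 and 372 with DMSO. COL1A1 rose by 0.3 with HL13. PDGFRA and CXCL12, below the median on all arrays, rose by 0.09 and 0.32 with HL13. For 7 endothelial markers the sums were 347 to 368 with HL13, 294 to 321 with LBH589 and 303 to 329 with DMSO. PECAM1 rose by 0.75 with HL13 and fell by 0.39 with LBH589, and was 1.14 higher with HL13 than with LBH589 (adjusted p = 0.00069, 0.029 and 0.00019, limma). KDR, below the median on all arrays, rose by 0.49 with HL13 and 0.13 with LBH589. VWF, CDH5 and CLDN5 were above the median on every array, TEK and EMCN were below it on every array, and none of these passed a test. Of 6 fat cell markers ADIPOQ, FABP4 and LEP were below the median on all arrays, PLIN1 and CIDEC were above it on all, and LPL rose by 0.59 with HL13. Of 7 monocyte and macrophage markers 3, and of 6 T and NK cell markers 4, were above the median on every array of each group. A place above the median thus did not separate plasma cells from other cell types. The part of stromal, endothelial and fat cells in the ENPP2, LIPH and ENPP5 differences was not tested. In RNA from whole cultures, a change in all cells and a change in a few cells cannot be told apart.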

How the data were processed

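RNA from MM.1S cells was hybridised to Affymetrix whole-transcript arrays, 3 per group. Each deposited value is a log2 intensity of 1 transcript cluster on 1 array, and it was used unchanged. The method by which the authors summarised and normalised probes was not given in the sources used here, and no background values were used, so a fold against a dim group may be understated. Array medians were 5.33 to 5.38, and the number of value columns left out was 0. The study's methods describe RNA sequencing, not these arrays.

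Of 70523 clusters, 23781 carried exactly 1 symbol in the platform annotation, 1543 several and 45199 none. The brightest cluster of each symbol gave 22465 genes, with no brightness filter. All 9 arrays were fitted with a mean per group (limma 3.58.1, R 4.3.3, lmFit and eBayes, two-sided), with Benjamini-Hochberg adjustment over all genes. The script was tested on simulated data. Per the labels the 3 arrays of each group are biological replicates, with no word on separate cultures. The p values measure only the spread among arrays, part of which may be technical, and 3 arrays a group limit the precision.

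The members and lists were chosen with earlier results of these data known. Members were described without p values. From each list, up to 4 called genes without overlap against DMSO and with the widest differences were named, with LPAR3 and LPAR4; other names in the text were picked after their values were seen. Gene likeness was measured for members that differed from DMSO by at least 1. Promoter sequences were from RefSeq (GRCh38.p14). Alternatives were a brightness filter, quantile normalization, median centring, only the 6 arrays compared, a replicate block, an intensity trend, the methods' t-test, the mean over a gene's clusters, and leaving out each array.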

Additional observations from a re-analysis of the deposited data

Results flagged for a closer look

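The second ENPP2 transcript cluster, which the comparisons did not use, carried a signal above the DMSO arrays. It read 4.26, 4.13 and 4.17 with HL13, 3.78, 3.65 and 4.17 with LBH589, and 3.63, 3.51 and 3.38 with DMSO. HL13 minus DMSO was 0.68 and LBH589 minus DMSO was 0.36 on the log2 scale, without overlap in either comparison, while the HL13 and LBH589 arrays overlapped. All these values lay below the array medians, and the direction was that of the brighter cluster.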

How the results depend on the processing

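Over the alternatives, no named list gene changed to a call in the opposite direction. The 8 genes had no calls, and signs of differences near 0 could change. For LPAR2, HL13 minus DMSO was 0.005 and, after quantile normalization, -0.05. Of 288 values for the 8 genes, 280 moved by less than the spread between replicates and 8 moved by more: ENPP2 with its clusters averaged (2.554, 1.853 and 0.701), 4 values of LPAR6 within 0.035 of 0, and PLPP1 after quantile normalization (1.053, HL13 minus DMSO). Of the values for named list genes, 1261 kept their call, 34 lost it and 1 gained it. The losses were S1PR5, PLD2, ENPP4 and LPCAT2 between HL13 and LBH589, CCN2 for LBH589 against DMSO and GNAI2 for HL13 against DMSO. P2RY10 gained a call between HL13 and LBH589 without HL13 replicate 2 (-0.192, adjusted p = 0.0429).

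Genes called, HL13 against DMSO, were 9981, with 9206 to 10298 when 1 array was left out. Genes called, LBH589 against DMSO, were 8971 (8240 to 8986). Genes called, HL13 against LBH589, were 5243 (4163 to 5223), and 3353 by the methods' t-test after Benjamini-Hochberg adjustment. The cause was not tested. The deviations of same-numbered arrays of different groups had r = -0.213 to 0.0394 over 9 pairs. For arrays with different numbers r was -0.149 to 0.237 over 18 pairs. The pairs share arrays and each group has few, so these values cannot decide whether equal numbers pair samples. The labels do not say whether they do. With the replicate block 9465, 8456 and 4392 genes were called, and of the LPA genes 51, 46 and 29, against 55, 50 and 35 without it. No background values were used, so no limit could be set on folds against dim groups. Of the 8 genes these include LPAR1, LPAR6 and PLPP3 in every group, LIPH with LBH589 and DMSO, and ENPP2 and ENPP5 with DMSO. Other named genes include ENPP3, LPAR3, LPAR4, PDGFRA, CXCL12 and KDR, dim in every group. Also dim were PLD1 and PLPPR1 with DMSO, PECAM1 with LBH589, and PRKAA2 with LBH589 and DMSO.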

Other observations

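Genes beside the members on the chromosome, in the order of protein-coding genes in the reference table, were read from the same fit. The 8 genes had 17 such neighbours, of which 16 were measured, and 6 rose and 3 fell with HL13, against 22.9% and 21.5% of all genes, and 7 rose and 3 fell with LBH589, against 20.9% and 19.0% of all genes. ENPP4 stood next to ENPP5 and rose with both compounds, as did RCAN2 on the other side, by 0.39 and 0.21. TAF2, next to ENPP2, fell by 0.23 with HL13 and by 0.2 with LBH589, and CCN3, on its other side, was below the array median throughout and passed neither test. TMEM41A, next to LIPH, fell by 0.16 with HL13 (adjusted p = 0.0019, limma). RB1, whose span encloses LPAR6, rose by 0.52 and 0.42 while LPAR6 held 1 value on nearly all arrays. PRKAA2, a catalytic subunit of the AMP-activated kinase next to PLPP3, rose by 1.12 with HL13 and by 0.34 with LBH589, and was 0.77 higher with HL13 than with LBH589 (adjusted p = 2.3e-05, limma). USP24, on the other side of PLPP3, had -0.87 with HL13 and -1.05 with LBH589 and fell with both (adjusted p = 4.3e-06 and 1.5e-06, limma).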
